A study of Mus musculus with 12 samples.

Results

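The 39 genes described here mark endothelial cells, the cells that line blood vessels, and were grouped as 6 arterial, 7 sinusoidal and 26 pan-endothelial genes. They were taken from a list of endothelial identity genes and matched by symbol to the mouse annotation, and 39 of 39 matched 1 gene ID among the 55421 genes counted. RNA of sorted bone marrow endothelial cells was measured in 12 mice, all 20 weeks old, with 1 library per mouse and 3 mice in each of 4 groups. Naive C57BL/6J mice served as controls, C57BL/6J mice infused with angiotensin II from an implanted pump had hypertension, *Apoe* knockout mice (strain Apoe(tm1Unc)) on a western diet had atherosclerosis, and C57BL/6J mice had an acute myocardial infarction (MI) after a coronary artery was tied. The labels give day 2 after MI. The study's text gives a later day, and the files do not settle which one holds. The knockout is present from birth and in every cell, so genotype and diet cannot be told apart in that group. Replicates are numbered 2, 3 and 4 in every group, and all comparisons rest on the same 3 control mice.

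Bone marrow vessels are of a few kinds. Arteries and arterioles bring blood in, and wide, thin-walled sinusoids drain it and are the site where newly made blood cells enter the circulation. Both kinds share a core of endothelial genes for cell junctions (*Cdh5*, *Pecam1*, *Esam*) and for receptors of angiopoietin (*Tek* and its relative *Tie1*). The core also holds transcription factors of the ETS and SOX families (*Erg*, *Sox7*, *Sox18*). Many of these genes are also made by platelets, blood stem cells, macrophages or lymphocytes. From textbook knowledge, 17 of the 39 genes are seldom made by blood cells and are called restricted here (*Cdh5*, *Plvap*, *Stab2*, *Ptprb*, *Cldn5*, *Sox7*, *Sox17*, *Sox18*, *Mmrn2*, *Ecscr*, *Clec14a*, *Gpihbp1*, *Nos3*, *Ramp2*, *Aplnr*, *Gja4* and *Efnb2*), and the other 22 are called shared.

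Total counts were between 17007088 and 25136936 per library, so that 3 counts, taken as the smallest amount measured, stood for 0.119 to 0.176 CPM, the counts of a gene after its library is brought to a shared size. This floor covers counting error only. *Apoe*, the targeted gene, held 7.28 to 14.8 CPM in the 3 knockout libraries and 450.5 to 1503 CPM in the other 9. The sort kept CD31-high, SCA-1-positive cells and removed cells with CD45, CD41 or TER-119. Transcripts of the kept and the removed markers were both found in every library. *Pecam1*, which encodes CD31, had a median of 7.88 TPM (counts scaled by gene length and library total) and *Ly6a*, which encodes SCA-1, a median of 27.6 TPM, whereas *Ptprc*, which encodes CD45, had 79.0 TPM and *Itga2b*, which encodes CD41, 36.1 TPM. *Cdh5*, the junction protein VE-cadherin and a defining endothelial gene, had 1.71 TPM. Summed over genes, the 17 restricted endothelial genes held between 63.6 and 191 CPM and the 22 shared ones between 346 and 540 CPM. Marker genes of neutrophils (12 genes) held 34050 to 99180 CPM, those of erythroid cells (12 genes) 10830 to 46580, of monocytes (8 genes) 1366 to 2703, of macrophages (11 genes) 764 to 1335 and of megakaryocytes (8 genes) 409 to 1769. B cell (8 genes), T and NK cell (8 genes) and plasmacytoid dendritic cell markers (6 genes) held 195 to 1155, 326 to 782 and 145 to 363 CPM, progenitor markers (9 genes) 120 to 185, mesenchymal stroma markers (10 genes) 115 to 357, pericyte and muscle markers (6 genes) 8.75 to 24.0, and 5 genes of all leukocytes 2086 to 3030. No gene of these lists stayed at or under 3 counts in all 12 libraries. In such bulk RNA the CPM of a gene is a share of its library. A lower level of an endothelial gene can come from fewer endothelial cells, less RNA per cell or more RNA of other cells. These cannot be told apart.

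On the length-scaled level the 39 genes spanned medians from 0.284 to 91.1 TPM over the 12 libraries, and 24 of 39 lay under 5 TPM. The restricted genes were lower in this range, with 15 of 17 under 5 TPM, against 9 of 22 shared genes. The exceptions were *Plvap*, the protein of the diaphragms that close endothelial pores, with a median of 52.7 TPM, and *Cldn5*, a tight junction protein, with 9.0 TPM. *Klf2*, a transcription factor induced by blood flow and also made by lymphocytes, was first of the 39 with a median of 91.1 TPM, and *Nos3*, the endothelial nitric oxide synthase, was last with 0.284 TPM. These levels depend on the length taken for each gene, and with the longest transcript in place of all exons *Pecam1* moved from a mean of 8.74 to 12.7 TPM and *Cd34* from 14.0 to 26.6 TPM.

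**Figure D1:**
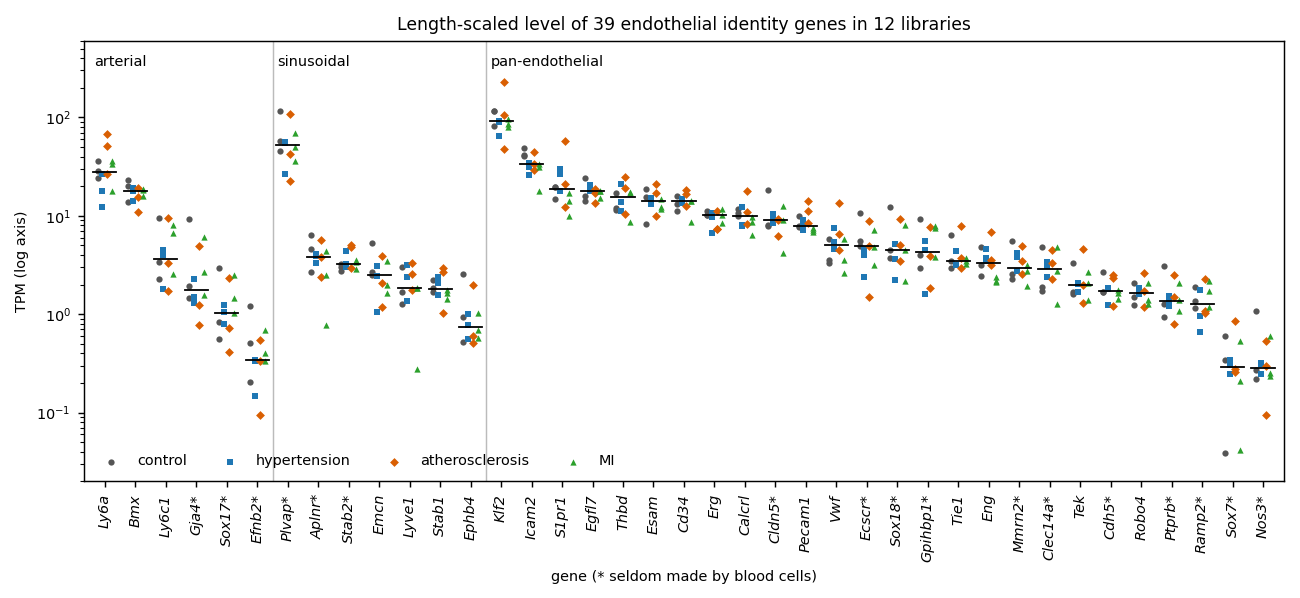
Level of each of the 39 genes in TPM on a log axis, by vessel class and then by median (black line over 12 libraries), with 1 point per library and the 4 groups by colour and shape. Restricted genes carry an asterisk, and *Klf2* and *Plvap* stand highest with medians of 91.1 and 52.7 TPM.

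The 3 restricted arterial genes were rare and differed widely between mice. *Gja4* (ENSMUSG00000050234, GRCm38 chromosome 4 from 127311421 to 127314039), which encodes the gap junction protein connexin 37, reached 1.07, 1.25 and 5.82 CPM in controls 2, 3 and 4. It had 1.5, 0.963 and 0.751 CPM in hypertension, 0.445, 0.998 and 3.01 in atherosclerosis and 2.15, 4.6 and 1.10 after MI, in the order of replicates 2, 3 and 4. Control 4 was thus the highest of the 12 libraries, and every group of 3 overlapped every other. *Efnb2* (ENSMUSG00000001300, chromosome 8 from 8617434 to 8661242), the arterial ligand ephrin-B2, gave 0.617, 1.35 and 3.10 CPM in controls, 0.908, 0.876 and 0.351 in hypertension, 0.222, 1.12 and 1.38 in atherosclerosis and 1.10, 2.12 and 1.16 after MI. *Sox17*, a transcription factor of arterial identity, gave 1.18, 1.52 and 5.28 CPM in controls and between 0.667 and 5.35 CPM in the other libraries, with the highest value in MI 3. In all 3 genes control 4 stood well above controls 2 and 3, by 5.04-fold for *Gja4*, 3.92-fold for *Sox17* and 3.15-fold for *Efnb2* over the mean of those 2.

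The other 3 arterial genes are shared with blood cells. *Ly6a*, the gene of the sorting antigen SCA-1, which marks arterial cells and blood stem cells, was at 15.0, 11.3 and 16.1 CPM in controls, 12.3, 8.23 and 5.16 in hypertension, 11, 29.3 and 29.9 in atherosclerosis and 10.4, 19.6 and 16.7 after MI. Atherosclerosis 3 and 4 were the only libraries above 20 CPM, and atherosclerosis 2 lay below all 3 controls. *Ly6c1* ranged from 0.979 to 6.03 CPM, and its near copy *Ly6c2*, a monocyte gene, from 147 to 529 CPM, so that reads the aligner could place on either gene make the *Ly6c1* counts uncertain. *Bmx*, a kinase of arterial endothelium and of neutrophils, varied least of the 6, from 16.3 to 27.9 CPM, a ratio of 1.71 between the highest and the lowest library.

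Of the sinusoidal genes *Plvap* (ENSMUSG00000034845, chromosome 8 from 71497765 to 71511752) carried most of the counts. It gave 50.1, 35.1 and 84.7 CPM in controls, 42.8, 42.0 and 18.2 in hypertension, 15.3, 40.9 and 79.3 in atherosclerosis and 48.1, 60.9 and 29.9 after MI. Control 4 and atherosclerosis 4 were the highest and atherosclerosis 2 and hypertension 4 the lowest, so each group held wide differences and the groups overlapped. *Stab2* (ENSMUSG00000035459, chromosome 10 from 86841198 to 87008025), a scavenger receptor that clears hyaluronan in sinusoids, was even, with 12.5, 9.37 and 9.93 CPM in controls, 14.8, 11 and 9.01 in hypertension, 15.0, 12.3 and 15.5 in atherosclerosis and 15.0, 11.4 and 12.5 after MI. Its highest library exceeded its lowest by 1.72-fold, where *Plvap* spanned 5.52-fold.

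The apelin receptor *Aplnr* ranged from 1.38 CPM in MI 2 to 8.84 CPM in control 4. *Emcn*, the sialomucin endomucin of veins and sinusoids, ranged from 1.95 CPM in hypertension 4 to 10.6 CPM in control 4, and *Ephb4*, the venous receptor of ephrin-B2, from 0.801 CPM in atherosclerosis 2 to 4.38 CPM in control 4. *Stab1*, a scavenger receptor made by sinusoids and macrophages, ranged from 5.05 to 10.4 CPM. *Lyve1*, a hyaluronan receptor of lymphatic and sinusoidal cells and of some macrophages, held 0.387 CPM, or 7 counts, in MI 2 and at most 3.59 CPM in hypertension 3.

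Of the 11 restricted pan-endothelial genes, *Cdh5*, *Ptprb*, *Cldn5*, *Sox18*, *Mmrn2*, *Ecscr* and *Nos3* were highest in control 4, *Clec14a* and *Ramp2* in MI 3, *Gpihbp1* in MI 2 and *Sox7* in atherosclerosis 4. *Cldn5* gave 4.88, 4.39 and 9.54 CPM in controls, 4.95, 5.65 and 4.16 in hypertension, 4.31, 4.23 and 4.79 in atherosclerosis and 2.87, 7.89 and 5.39 after MI. *Ptprb*, the phosphatase VE-PTP that holds *Tek* signalling in check, gave 5.49, 6.5 and 15.2 CPM in controls and 5.11 to 12.5 CPM elsewhere. *Sox18* and *Clec14a*, a transcription factor and a C-type lectin of endothelium, spanned 1.25 to 7.37 and 2.76 to 9.84 CPM, and *Mmrn2*, a matrix protein that binds *Clec14a*, 3.47 to 8.22 CPM. *Gpihbp1*, which carries lipoprotein lipase across capillaries, spanned 1.40 to 9.55 CPM, *Ecscr*, a chemotaxis regulator, 0.890 to 6.98 CPM, and *Ramp2*, the partner of *Calcrl* in the adrenomedullin receptor, 0.751 to 3.18 CPM. *Cdh5* (ENSMUSG00000031871, chromosome 8 from 104101625 to 104144511) was steadier, with 3.08, 2.71 and 4.19 CPM in controls, 2.00, 2.98 and 2.60 in hypertension, 3.34, 2.47 and 3.87 in atherosclerosis and 3.31, 3.28 and 2.49 after MI. The rarest were *Nos3*, with 3 to 43 counts per library, and *Sox7*, with 1 to 20 counts, whose lowest libraries lay under the floor of 3 counts.

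Many of the shared pan-endothelial genes were higher and steadier than the restricted ones. *Tek*, *Robo4*, *Eng* and *Tie1* lay at levels like those of restricted genes. *Klf2*, *S1pr1* and *Vwf* spanned 5.16-fold, 4.10-fold and 3.97-fold between libraries. The adhesion molecules *Pecam1* and *Icam2* ranged from 17.2 to 31.8 and from 16.2 to 34.8 CPM, the sialomucin *Cd34*, also of blood progenitors, from 30.4 to 45.8 CPM, and the secreted protein *Egfl7* from 19.5 to 32.1 CPM. The exons of *Egfl7* overlap those of *Gm20532* and of the microRNA gene *Mir126a* on the same strand, and those of *Ramp2* overlap *Vps25*, so their counts may miss reads shared with these neighbours. Exons of *Nos3*, *Stab1*, *Eng*, *Ephb4*, *Cd34*, *Ecscr*, *Sox17*, *Stab2* and *Egfl7* overlap genes on the opposite strand. The same would hold for them if strand was ignored in counting. *Esam*, *Erg* and *Thbd*, which encodes thrombomodulin, ranged over 9.10 to 22.2, 7.91 to 18.3 and 15.6 to 31.0 CPM. *Tie1*, *Tek*, the guidance receptor *Robo4* and *Eng*, a TGF-beta co-receptor, ranged over 5.31 to 14.2, 2.7 to 8.0, 2.86 to 5.04 and 3.65 to 10.1 CPM. *Calcrl* ranged from 14.8 to 29.9 CPM. *Klf2* spanned 30.1 CPM in atherosclerosis 2 to 155 CPM in atherosclerosis 4, and *S1pr1*, the sphingosine phosphate receptor of endothelium and lymphocytes, 14.5 CPM in MI 2 to 59.5 CPM in atherosclerosis 2. *Vwf*, the clotting factor stored by endothelium and megakaryocytes, was at 40.7, 20.5 and 21.3 CPM in controls, 28.9, 33.4 and 41.9 in hypertension, 74.2, 34.5 and 38.3 in atherosclerosis and 27.3, 18.7 and 39.1 after MI.

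Set side by side, the genes varied more between mice of a group than genes in general. The biological coefficient of variation, edgeR's estimate of the spread between mice of the same group, had a median of 33.1% over the 39 genes against 22.5% over the 15999 genes tested. It was smallest for *Pecam1*, at 15.1%, and largest for *Gja4*, at 61.5%. The ratio of the highest to the lowest library had a median of 5.89 over the restricted genes and 2.55 over the shared ones, and low counts raise such a ratio. Over genes above 1 CPM in each library it was 3.45 for the 10 restricted and 2.31 for the 19 shared genes that met this limit, and 1.92 for all genes tested that did. A single mouse stood out. Control 4 was the highest library for 15 of the 39 genes, 11 of them restricted, and for 5.61% of all genes tested, and it exceeded the mean of controls 2 and 3 in 34 of 39 genes, against 48.3% of all genes tested. The median ratio was 3.10 for arterial, 1.62 for sinusoidal, 1.45 for pan-endothelial and 2.40 for restricted genes, and 0.990 for all genes. Atherosclerosis 4 was the highest library for 10 of the 39 genes (14.4% of all genes tested) and MI 3 for 6 (4.34%). Hypertension 4 was the lowest for 9 (11%), atherosclerosis 2 for 9 (19.0%) and MI 2 for 8 (16.7%). Atherosclerosis 2 also held the highest value for 20.0% and MI 2 for 17.5% of all genes, and atherosclerosis 4 held the lowest for 15.3%. Atherosclerosis 2, MI 2 and atherosclerosis 4 thus stood apart in general, whereas control 4, the lowest for 5.17%, did not. Gene length moved with some of this. In atherosclerosis 2 the 9 genes with under 2000 exonic bases lay at a median of -1.14 from their own means on the log2 scale and the 15 genes over 4500 bases at -0.16, and over all genes tested those over 9243 bases lay 0.30 above those under 1096 bases at the median. In control 4 the same 9 and 15 genes lay at 0.97 and 0.52, with 0.12 between these long and short genes, and in hypertension 4 at -0.97 and -0.41, with 0.06. The part of length in these deviations was not tested.

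**Figure D2:**
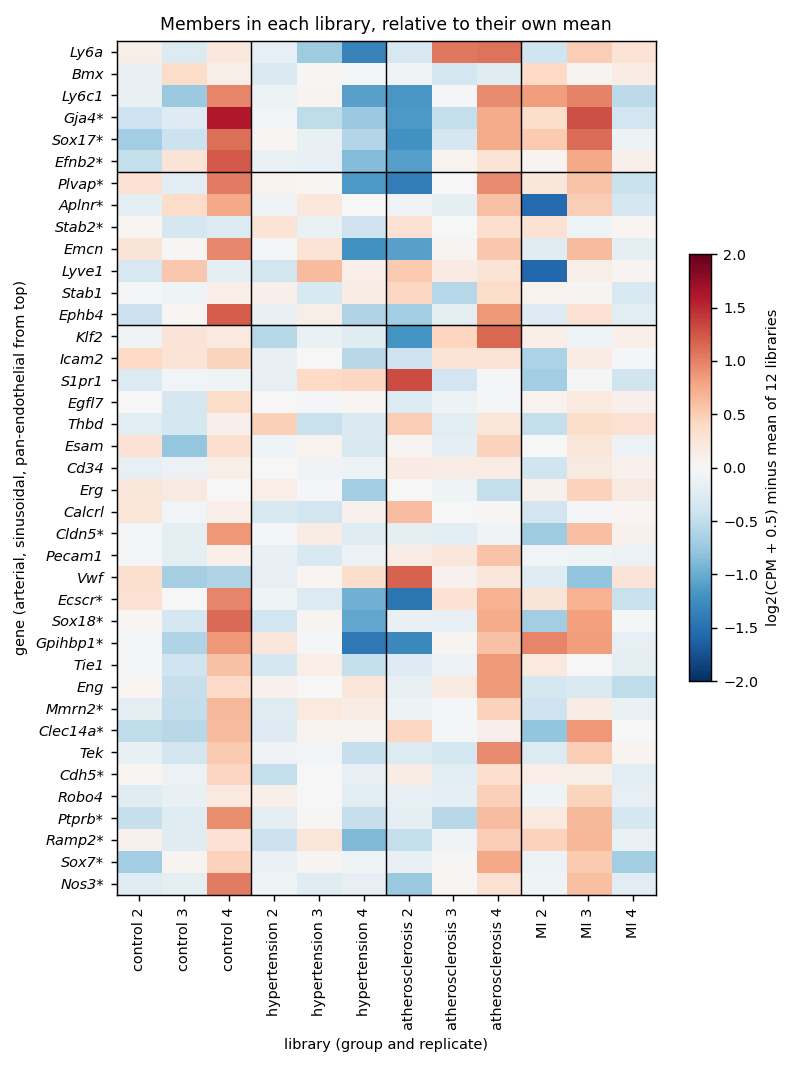
Deviation of each gene (rows, by vessel class from arterial at the top) in each library (columns, by group) from its mean over 12 libraries, as log2(CPM + 0.5), with red above and blue below the mean. Restricted genes, marked by an asterisk, are mostly red in control 4, atherosclerosis 4 and MI 3 and mostly blue in hypertension 4 and atherosclerosis 2, while hypertension 2 and 3 lie closer to their means.

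Summed by class, the 3 restricted arterial genes gave 2.86, 4.12 and 14.2 CPM in controls 2, 3 and 4, 4.68, 3.77 and 2.40 in hypertension, 1.33, 3.76 and 8.40 in atherosclerosis and 6.63, 12.1 and 4.29 after MI. Group means were 7.06 ± 6.22 in controls, 3.62 ± 1.14 in hypertension, 4.50 ± 3.59 in atherosclerosis and 7.66 ± 3.99 after MI (SD, n = 3). The differences between these means were smaller than the spread within the control group. The 3 restricted sinusoidal genes, mostly *Plvap*, gave 73.9 ± 26.9, 51.1 ± 16.5, 65.0 ± 34.4 and 63.4 ± 16.7 CPM (SD, n = 3) in the same order of groups. Without *Plvap* the sinusoidal sum of *Stab2* and *Aplnr* was level, with 17.2 ± 1.44, 16.8 ± 2.80, 19.8 ± 3.33 and 17.1 ± 1.31 CPM (SD, n = 3). In this sum *Stab2* and *Aplnr* partly offset each other. The mean of *Stab2* was 10.6 CPM in controls and 12.95 CPM after MI, that of *Aplnr* 6.59 and 4.17 CPM. The 11 restricted pan-endothelial genes gave 46.8 ± 23.1, 35.1 ± 6.13, 41.9 ± 12.7 and 46.6 ± 15.6 CPM (SD, n = 3). The ratio of the restricted arterial to the restricted sinusoidal sum was 0.0427, 0.0805 and 0.137 in controls, 0.0750, 0.0640 and 0.0747 in hypertension, 0.0380, 0.0654 and 0.0820 in atherosclerosis and 0.103, 0.152 and 0.0927 after MI, so the 3 MI libraries overlapped with controls only through control 4.

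**Figure D3:**
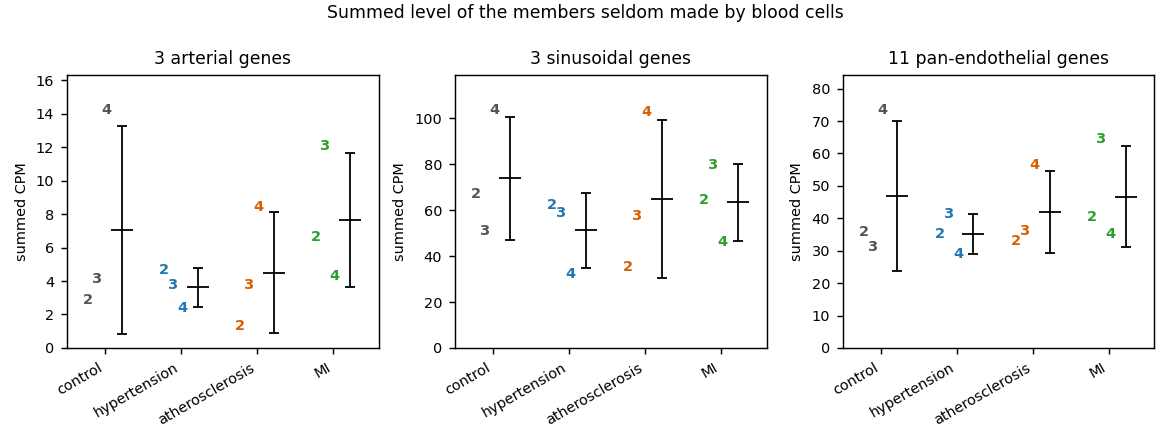
Summed CPM of the restricted arterial, sinusoidal and pan-endothelial genes on linear axes from 0, with each library drawn as its replicate number and the group mean with its SD (n = 3) beside it. Control 4 reaches 14.2, 103.5 and 73.4 CPM in the 3 panels, while controls 2 and 3 lie within the range of the disease groups.

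Upstream sequences are shown for 3 genes chosen because they were highest in control 4, and for 1 that was not. Promoter windows from RefSeq (build GRCm38.p6) were matched for 19 of the 39 genes, with 24 windows, and the 250 bases before the annotated start were read on the strand of the gene. *Gja4* (chr4:127314040-127314289, minus strand), *Efnb2* (chr8:8661243-8661492, minus strand) and *Cldn5* (chr16:18776597-18776846, plus strand) were all highest in control 4, and *Stab1* (chr14:31168642-31168891, minus strand), which ranged only 2.06-fold over the 12 libraries, is given beside them. Capitals mark the ETS motif CAGGAAG, and each sequence runs 5′ to 3′ up to the base before the start.
Gja4: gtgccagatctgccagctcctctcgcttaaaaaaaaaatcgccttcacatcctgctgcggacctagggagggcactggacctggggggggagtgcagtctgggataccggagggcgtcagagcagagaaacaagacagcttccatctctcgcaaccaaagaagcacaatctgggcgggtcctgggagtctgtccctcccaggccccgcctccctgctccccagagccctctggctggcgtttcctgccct
Efnb2: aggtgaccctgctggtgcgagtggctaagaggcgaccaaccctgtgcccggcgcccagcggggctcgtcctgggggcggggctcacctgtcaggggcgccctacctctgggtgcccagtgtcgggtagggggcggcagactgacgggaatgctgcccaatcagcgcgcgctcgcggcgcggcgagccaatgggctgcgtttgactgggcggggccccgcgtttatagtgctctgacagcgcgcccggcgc
Cldn5: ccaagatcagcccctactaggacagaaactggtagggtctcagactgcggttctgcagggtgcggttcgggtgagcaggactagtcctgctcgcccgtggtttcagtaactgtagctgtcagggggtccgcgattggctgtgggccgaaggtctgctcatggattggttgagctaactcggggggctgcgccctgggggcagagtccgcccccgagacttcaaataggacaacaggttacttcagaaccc
Stab1: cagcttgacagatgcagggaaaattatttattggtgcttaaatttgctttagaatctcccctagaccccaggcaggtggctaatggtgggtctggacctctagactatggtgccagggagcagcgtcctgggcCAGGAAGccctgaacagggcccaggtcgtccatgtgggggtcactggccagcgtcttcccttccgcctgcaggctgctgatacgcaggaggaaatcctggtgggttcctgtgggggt

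The letters CAGGAAG, on either strand, were found in 8 of the 24 windows (33.3%; *Calcrl*, *Cd34*, *Egfl7*, *Emcn*, *Erg*, *Robo4* and *Stab1*) and in 10.8% of all 32851 windows of the same length. A SOX motif, ACAATG, was found in 2 of the 24 (8.33%; *Calcrl* and *Erg*) and in 10.7% of all windows. Neither motif contains the other. Of the 4 windows printed, the one of *Stab1* holds the ETS motif, 117 bases before the start, and none holds the SOX motif. These are matches of letters, described without a test.

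In hypertension no gene of the 39 passed an adjusted p of 0.05 (edgeR quasi-likelihood test over 15999 genes), and 0% of all genes did. At an unadjusted p under 0.05 there was 1 of 39, where 3.71% of all genes tested passed (DESeq2 and edgeR's likelihood-ratio test also gave 1, with 0 after adjustment). *Icam2*, an adhesion molecule of endothelium, platelets and lymphocytes, had the smallest p. It was at 33.8, 30.8 and 34.8 CPM in controls and at 22.9, 25.3 and 17.1 in hypertension, so the groups did not overlap, with a log2 fold change of -0.61 ± 0.23 (SE; edgeR, adjusted p = 0.951). All 3 hypertension libraries lay below all 3 controls for *Icam2*, *Ecscr* and *Klf2*, and none of the 39 lay above, while 7.81% of all genes lay below and 9.02% above. Neutrophil markers were also below all controls there, at 37250 to 54390 CPM against 58950 to 81520. So were monocyte markers, at 1366 to 1589 against 1595 to 2197 CPM. The 5 genes of all leukocytes were below as well, at 2086 to 2547 against 2679 to 3030 CPM. B cell markers overlapped with controls, at 524 to 851 against 447 to 641 CPM. So did T and NK cell markers, at 380 to 530 against 505 to 782 CPM. Megakaryocyte markers overlapped too, at 700 to 848 against 409 to 1769 CPM. The part of these cells in the result was not tested.

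The next 4 genes by p were *Efnb2* (log2 fold change -1.26 ± 0.65), *Ly6a* (-0.72 ± 0.38), *Ecscr* (-1.01 ± 0.55) and *Gja4* (-1.36 ± 0.76), all ± SE and each with an edgeR adjusted p of 0.951. Without control 4 the fold change of *Gja4* was -0.10 and that of *Efnb2* -0.45. By sign, 7 of the 39 genes were higher and 32 lower in hypertension, with a median log2 fold change of -0.34 against -0.01 over all genes tested. All 6 arterial genes were lower (median -0.66), as were 5 of 7 sinusoidal (median -0.35), 21 of 26 pan-endothelial (median -0.29) and 16 of 17 restricted genes (median -0.45). Without control 4 the split became 22 higher and 17 lower with a median of 0.05, and that of the restricted genes 9 and 8 with a median of 0.05, so the direction of the whole group rested on that 1 control mouse. The arterial genes were then 2 higher and 4 lower, with a median of -0.16.

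In atherosclerosis no gene of the 39 passed the adjusted threshold, against 0.144% of all genes, and 2 had an unadjusted p under 0.05, against 5.97%. The likelihood-ratio test gave 1 and DESeq2 2 at the unadjusted threshold, and both gave 0 after adjustment. *Pecam1* (ENSMUSG00000020717, chromosome 11 from 106654217 to 106750628) was at 21.0, 18.7 and 23.0 CPM in controls and at 23.6, 25.2 and 31.8 in atherosclerosis, with no overlap. Its log2 fold change was 0.36 ± 0.15 (SE; edgeR, adjusted p = 0.793). *Vwf* (ENSMUSG00000001930, chromosome 6 from 125546774 to 125686679) had a log2 fold change of 0.84 ± 0.35 (SE; edgeR, adjusted p = 0.801), and control 2 lay above atherosclerosis 3 and 4. Its fold change was 0.42 without atherosclerosis 2 and 1.23 without control 2. Megakaryocyte markers summed to 409 to 1769 CPM in controls and to 882 to 1127 CPM in atherosclerosis, and both the *Vwf* and the marker sum of controls were highest in control 2.

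*Bmx* (-0.35 ± 0.17), *Stab2* (0.43 ± 0.21) and *Ly6a* (0.72 ± 0.38) followed, with edgeR adjusted p = 0.849, 0.852 and 0.860. All 3 atherosclerosis libraries lay above the controls for *Pecam1* and *Cd34* and below them for *Erg*, where 5.06% of all genes lay above and 4.45% below. These 3 genes are shared with blood cells. Marker sums of some blood lineages lay above all controls there, the direction of *Pecam1* and *Cd34* but not of *Erg*. Progenitor markers held 171 to 185 CPM against 120 to 132 in controls, macrophage markers 1130 to 1335 against 864 to 934 and plasmacytoid dendritic cell markers 341 to 363 against 236 to 267. Marker sums of neutrophils, erythroid cells, monocytes, megakaryocytes, B cells and T and NK cells overlapped with controls. The part of any of these lineages in the result was not tested.

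By sign 19 genes were higher and 20 lower (median log2 fold change -0.05), with 1 of 6 arterial, 3 of 7 sinusoidal, 15 of 26 pan-endothelial and 4 of 17 restricted genes higher. The medians of the 3 vessel classes were -0.36, -0.24 and 0.12. Without control 4 they were 0.51, 0.19 and 0.33, and 32 of the 39 genes were higher. Without atherosclerosis 4 they were -1.06, -0.55 and -0.21, and 10 were higher and 29 lower, so the balance of signs turned on single mice of both groups.

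After MI no gene of the 39 passed the adjusted threshold, as for 0% of all genes, and 1 had an unadjusted p under 0.05, against 2.8% of all genes (also 1 by the likelihood-ratio test and by DESeq2). That gene was again *Icam2*, at 16.2, 28.3 and 24.7 CPM after MI, below all 3 controls, with a log2 fold change of -0.52 ± 0.24 (SE; edgeR, adjusted p = 1). Since hypertension and MI were compared with the same control mice, the 2 results for *Icam2* are not independent. The log2 fold change was -0.32 without MI 2. B cell markers, also of a lineage that makes *Icam2*, held 195 to 427 CPM after MI and 447 to 641 CPM in controls. T and NK cell markers overlapped with controls, at 447 to 692 against 505 to 782 CPM. The part of these lymphocytes was not tested. *Icam2* alone of the 39 lay below all controls and none above, while 4.59% of all genes lay below and 4.27% above.

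*Eng* (-0.45 ± 0.30), *Aplnr* (-0.66 ± 0.46), *Stab2* (0.29 ± 0.21) and *Calcrl* (-0.23 ± 0.20) followed, each with an edgeR adjusted p of 1. The fold change of *Aplnr* was -0.25 without MI 2 and -1.33 without MI 3. By sign 17 genes were higher and 22 lower (median log2 fold change -0.07), with medians of 0.11 for arterial, -0.37 for sinusoidal and -0.07 for pan-endothelial genes. Of the 17 restricted genes 6 were higher and 11 lower (median -0.14). Without control 4 the vessel class medians were 0.87, 0.01 and 0.23, and 6 of 6 arterial and 16 of 17 restricted genes were higher. Without MI 3 they were -0.03, -0.75 and -0.19, with 9 of the 39 genes higher and 30 lower and a restricted median of -0.54.

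**Figure D4:**
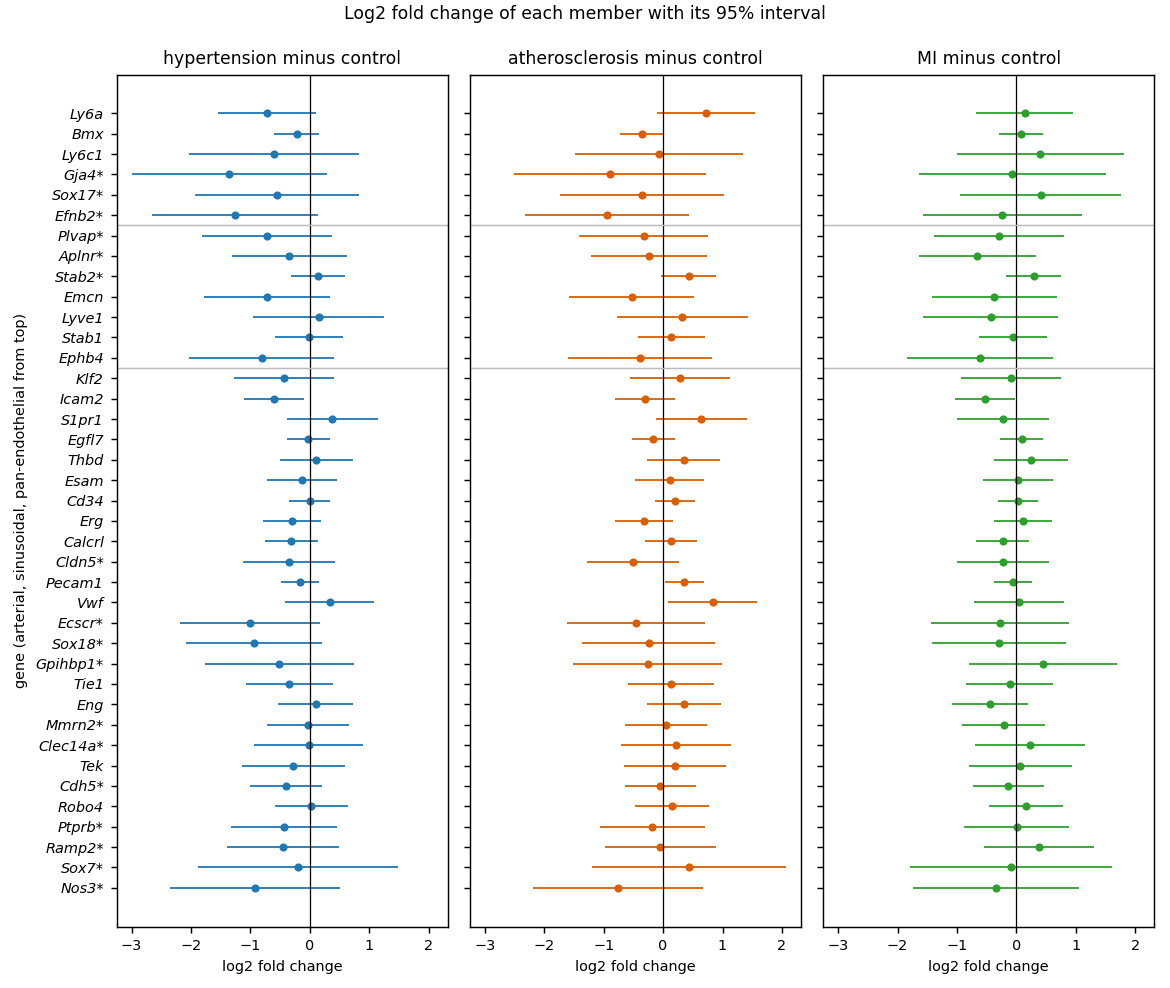
Log2 fold change of each gene (rows, arterial at the top, then sinusoidal and pan-endothelial) in each disease against controls, with the 95% interval from the fit over 12 libraries. Intervals that leave out 0 are those of *Icam2* in hypertension and MI and of *Pecam1* and *Vwf* in atherosclerosis, before adjustment, and the rare genes *Sox7*, *Gja4*, *Nos3*, *Sox17* and *Efnb2* have wide intervals.

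A single test of any difference among the 4 groups called none of the 39 genes at an adjusted p of 0.05, against 0.144% of all genes, and 2 at an unadjusted p under 0.05, against 7.48%. These were *Pecam1* (edgeR, adjusted p = 0.525) and *Ly6a* (edgeR, adjusted p = 0.533). The median standard error of the log2 fold changes was 0.64 for the 6 arterial genes in hypertension and 0.26 for all genes tested, and for a gene at the first of these medians a 2-fold difference lies within 2 standard errors. For *Gja4* the 95% interval of the difference between hypertension and controls ran from -3.00 to 0.29, while for *Cd34* it ran from -0.34 to 0.33.

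Other endothelial genes were taken from a list of 18, of which 17 were tested and *Apln* was too low. None passed the adjusted threshold in any of the 3 comparisons, and their median log2 fold change was -0.19 for hypertension, 0.05 for atherosclerosis and 0.04 for MI. The smallest p among them was that of *Flt4*, the receptor of VEGF-C, in atherosclerosis (log2 fold change 0.86 ± 0.35, edgeR, adjusted p = 0.785). *Kdr*, the main VEGF receptor of endothelium, was at 9.08, 6.28 and 13.1 CPM in controls 2, 3 and 4, and it too was highest in control 4. The sum of the 18 genes, *Kdr* included, was instead highest in atherosclerosis 2, at 225 CPM. It was 161, 171 and 211 CPM in controls 2, 3 and 4.

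Relations across the 12 libraries were computed for 8 of the genes, each with *Kdr* and with the summed markers of another cell type, 16 relations in all, on log2 CPM. The pairs were chosen with earlier results known. *Tek* followed *Kdr* (Pearson's r = 0.843, permutation test, adjusted p = 0.00784, and Spearman's rho = 0.846, adjusted p = 0.0128), with r = 0.840 without the 2 libraries farthest from the median of *Kdr* and r = 0.844 after the group means were removed. *Gja4* gave r = 0.726 with *Kdr* (permutation test, adjusted p = 0.0385) and rho = 0.566 (adjusted p = 0.240), and r = 0.623 without the 2 farthest libraries. *Vwf* gave r = 0.708 with the megakaryocyte markers (permutation test, adjusted p = 0.0385, rho = 0.615, adjusted p = 0.240, r = 0.697 without the 2 farthest) and r = -0.245 with *Kdr* (adjusted p = 0.783). *S1pr1* gave r = 0.816 with the B cell markers (permutation test, adjusted p = 0.0194, rho = 0.552, adjusted p = 0.240), but r = 0.487 without atherosclerosis 2 and MI 2, on which this relation rested. None of the other relations passed the threshold. *Cd34* gave r = 0.223 with progenitor markers and -0.818 after the group means were removed, so the pooled relation did not hold within groups. *Stab1* gave r = 0.0706 with macrophage markers, -0.0890 within groups and 0.585 without the 2 farthest libraries. *Lyve1* gave 0.0740 with macrophage markers and -0.440 within groups, *Bmx* 0.304 with neutrophil markers and -0.377 within groups, and *Gja4* 0.399 with pericyte and muscle markers and 0.563 within groups. Within groups *Gja4* with *Kdr* gave r = 0.761, *Vwf* with megakaryocyte markers 0.705 and *S1pr1* with B cell markers 0.775.

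As a description, the sum of the 17 restricted genes followed the mesenchymal stroma markers with r = 0.804 and rho = 0.804 over 12 libraries (r = 0.656 without hypertension 4 and atherosclerosis 2), and *Kdr* with r = 0.805 and rho = 0.650. With the summed 18 other endothelial genes it gave r = 0.355 and rho = 0.273, and r = 0.639 without control 4 and atherosclerosis 2. The stroma sum was 230, 151 and 316 CPM in controls 2, 3 and 4 and lowest, at 115 CPM, in hypertension 4, which was also the lowest library for the restricted sum. It was highest, at 357 CPM, in hypertension 2, where the restricted sum was 102 CPM, near its median of 103 CPM. With total counts the restricted sum gave r = 0.305, and -0.120 without control 4 and hypertension 3. Control 4 was the most deeply sequenced library, at 25136936 counts. All these sums share their libraries and their scaling, and the part of stroma or depth in the differences was not tested.

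**Figure D5:**
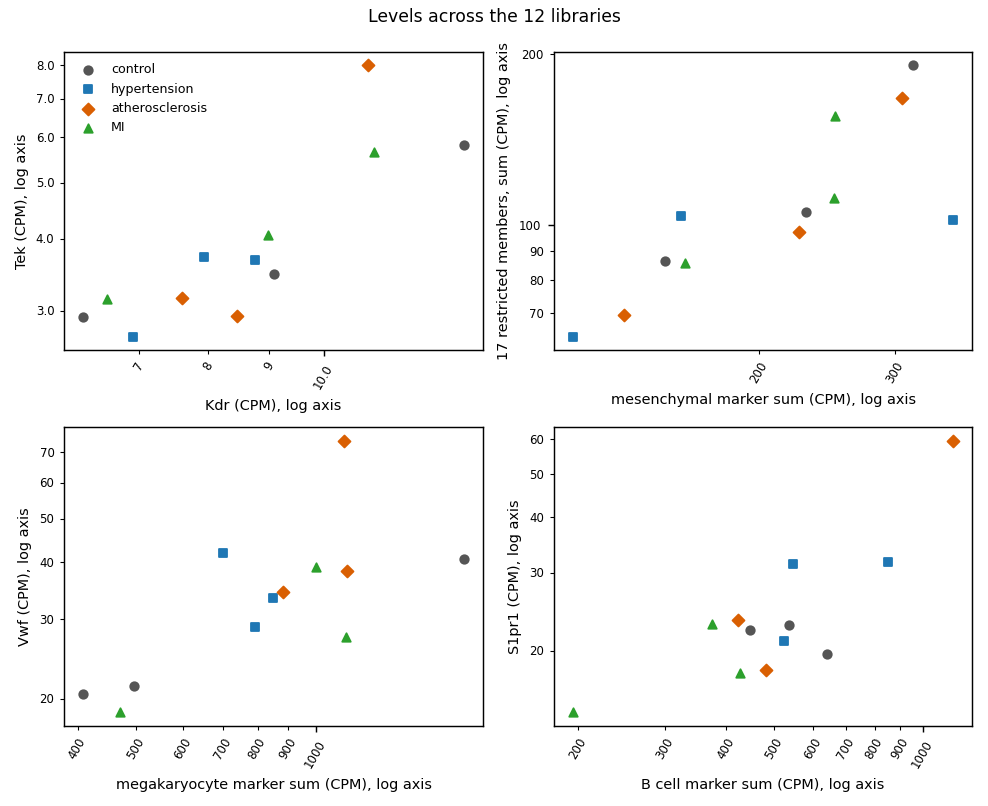
*Tek* against *Kdr*, the summed restricted genes against mesenchymal stroma markers, *Vwf* against megakaryocyte markers and *S1pr1* against B cell markers, all in CPM on log axes, with 1 point per library and groups by colour and shape. *Tek* and *Kdr* rise together (r = 0.843), and *S1pr1* depends on the atherosclerosis library at 59.5 CPM.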

How the data were processed

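RNA of sorted bone marrow endothelial cells was measured in 12 mice. The authors made strand-specific libraries of polyadenylated RNA, aligned single-end reads to GRCm38.p6 with STAR 2.7.3a, and deposited raw counts per Ensembl gene without normalization. Which of STAR's strand columns was taken is not given in the sources used here. Counting drops reads that map to several places, so near copies lose counts.

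Columns were matched to mice by group and replicate number. The study gives 3 mice per group. The p values weigh differences between groups against the spread between mice of a group, estimated over all 12 libraries together. Counts were filtered with filterByExpr, which left 15999 genes including the 39 studied, scaled by TMM (factors 0.934 to 1.06), and fitted with 1 coefficient per group over 12 libraries in R 4.3.3 (edgeR 4.0.16, glmQLFit and glmQLFTest, two-sided, Benjamini-Hochberg over 15999 genes, threshold 0.05). Standard errors are the fold change over the root of F. CPM values are TMM-scaled. TPM values use exonic lengths of GENCODE M21. Correlations were tested with 100000 permutations.

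Alternatives were edgeR's likelihood-ratio test, DESeq2 1.42.0, RLE factors, total counts, 2 other low-count filters, only the groups compared, the replicate block, removal of 409 immunoglobulin and hemoglobin genes, and each library left out. Leaving out atherosclerosis 2 and MI 2 together was added after seeing the data. The genes, their classes and the marker lists were chosen with earlier results of these data known. Levels are given for all 39 genes, and fold changes with adjusted p for the 5 genes of smallest unadjusted p in each comparison. The fit was tested on simulated counts.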

Additional observations from a re-analysis of the deposited data

How the results depend on the processing

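The number of the 39 genes called was 0 in each of the 4 tests under edgeR's quasi-likelihood test, and it stayed at 0 under every alternative except one. Without a filter on low counts, 1 gene was called in atherosclerosis (*Vwf*, log2 fold change 0.83) and 4 in the test of any difference among the 4 groups, while 432 and 990 of all genes were called there. With the replicate block 0 genes were called in all 4 tests. Same-numbered libraries did not deviate together more than others (correlations from -0.336 to 0.342 over 18 pairs, median -0.03). Libraries of different number gave a median of 0.01 over 36 pairs. With 3 mice per group this cannot show whether the numbers stand for pairs or batches. Leaving out each library in turn gave 0 calls throughout. Of 329 fold changes of named genes under the alternatives, 0 turned in sign. The named genes were the 5 of smallest p in each comparison, picked from these same data. Such genes are the least likely to turn, so this says little of the others. Over all 39 genes the split in hypertension went from 7 higher and 32 lower to 22 and 17 without control 4. Of 255 class medians, 9 moved by more than their spread, 8 of them without control 4. This spread was the SD over the 3 controls, control 4 included, so the limit depended on the mouse left out. In hypertension the medians then went from -0.34 to 0.05 for all genes, from -0.29 to 0.09 for pan-endothelial and from -0.35 to 0.01 for sinusoidal genes. Those of restricted genes went from -0.45 to 0.05 and those of arterial genes from -0.66 to -0.16. Most class medians turned in sign without control 4. With the longest transcript for length, 35 of 39 levels stayed within their spread between mice and the order kept a rank correlation of 0.976. With 3 mice per group and a median spread of 33.1%, small differences could not be detected, above all in the genes under 5 TPM.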
